A study of Mus musculus with 6 samples.

Results

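The genes described here encode the machinery that docks, primes and fuses secretory granules with the plasma membrane, together with the close relatives of those proteins that serve other membranes of the cell. They were chosen by symbol in the array's annotation (syntaxins, syntaxin binding proteins, VAMPs, SNAP23, SNAP25, SNAP29 and SNAP47, synaptotagmins, synaptotagmin-like proteins, Rab3 and Rab27, Unc13, Rims and complexins), which gave 68 genes read by 163 probe sets, out of 18193 genes on the array. Each gene was read by its brightest probe set, the one with the highest mean over all arrays. Expression was measured in MIN6 cells, an insulin-secreting line from a mouse insulinoma that stands in for beta cells in culture. The cells had received an siRNA against mouse Hlxb9 (now Mnx1), which encodes a homeodomain protein of beta cells and motor neurons, on 3 arrays, and a scrambled negative control siRNA on 3 arrays. Both groups were transfected by nucleofection with a lipid reagent and harvested 72 hours later. Only transfections in which western blotting showed a loss of over 75% of the Hlxb9 protein went to the arrays. The labels also call the samples sorted cells and name no gate, and nothing in them says more of how the replicates were made than that the transfections were independent.

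In regulated exocytosis a SNARE on the vesicle (a VAMP) zips up with SNAREs on the plasma membrane (a syntaxin and a SNAP protein) and pulls the membranes together. Munc18 proteins, encoded by Stxbp genes, guide the syntaxin, Munc13 (Unc13) and RIM proteins prime the vesicle, complexins clamp the half-assembled complex, and synaptotagmins trigger fusion when calcium enters. Rab3 and Rab27 are GTPases on the granule surface that recruit tethering proteins, among them RIM and granuphilin (Sytl4). In beta cells this machinery releases insulin from dense core granules after glucose raises cytosolic calcium.

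All values are log2 RMA signals, and a difference is Hlxb9 siRNA minus control siRNA. Array medians lay between 5.16 and 5.20 after Hlxb9 siRNA and between 5.08 and 5.16 after control siRNA. Control replicate 3 stood apart from the other 5 arrays. It correlated with them at r of 0.991 at most, whereas every other array reached 0.997 with its nearest neighbour, and the gap between its 3' and 5' Gapdh control probe sets was 2.13 log2, while on the other arrays it lay between 0.65 and 0.78. Values without that array are therefore given beside the results it touches. The transcript of the targeted gene, Mnx1, read 7.53, 7.41 and 7.28 on the Hlxb9 siRNA arrays and 7.82, 7.50 and 7.77 on the control arrays. The groups overlapped, and the difference of -0.29 ± 0.13 log2 (SE) did not pass (limma adjusted p = 0.659). In bulk RNA samples such as these, fewer cells of a type and less RNA per cell cannot be told apart.

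Homeodomain factors such as Mnx1 bind AT-rich sites with a TAAT core. The promoter windows of Rab3a and Rab3b are therefore shown with each TAAT (ATTA on the other strand) in capitals. These genes were chosen because their brightest probe sets read in opposite directions, but neither passed (limma adjusted p = 0.645 for both). The other Rab3a probe set differed by 0.04 only. Whether a TAAT bears on these readings was not tested. The windows are from RefSeq (GRCm38.p6) and run from 250 bases before to 50 after an annotated start, 5' to 3'.
Rab3a, upstream start, chr8:70754453-70754752, strand +: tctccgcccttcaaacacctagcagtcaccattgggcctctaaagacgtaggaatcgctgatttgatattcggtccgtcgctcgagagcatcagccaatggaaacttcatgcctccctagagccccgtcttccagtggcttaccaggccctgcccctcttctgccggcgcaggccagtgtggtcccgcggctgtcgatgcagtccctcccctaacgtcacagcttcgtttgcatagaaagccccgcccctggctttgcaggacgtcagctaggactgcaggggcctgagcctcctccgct
Rab3a, downstream start, chr8:70754852-70755151, strand +: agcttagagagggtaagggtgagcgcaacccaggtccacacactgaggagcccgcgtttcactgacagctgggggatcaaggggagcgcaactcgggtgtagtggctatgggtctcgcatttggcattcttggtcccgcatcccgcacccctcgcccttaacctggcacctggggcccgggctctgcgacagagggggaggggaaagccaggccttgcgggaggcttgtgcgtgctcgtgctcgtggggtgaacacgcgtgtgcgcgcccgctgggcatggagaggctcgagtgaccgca
Rab3b, chr4:108878820-108879119, strand +: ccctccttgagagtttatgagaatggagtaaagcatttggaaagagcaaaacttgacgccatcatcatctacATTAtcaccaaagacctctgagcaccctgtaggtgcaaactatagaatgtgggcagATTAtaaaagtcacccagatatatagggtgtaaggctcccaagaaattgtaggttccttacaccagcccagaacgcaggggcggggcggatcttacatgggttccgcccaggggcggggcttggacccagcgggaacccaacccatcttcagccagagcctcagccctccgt
Neither Rab3a window holds a TAAT, and the Rab3b window holds 2. The motif count used 65 windows from 52 of the 68 genes, and the other genes have no window in it. Windows of exocytosis genes on 1 chromosome were left out of it by a filter that the windows of all genes did not pass through. How many of the missing genes that filter removed was not counted. Of the 65, 38.5% hold TAAT on either strand, against 58% of all 32851 windows of that length. The longer palindrome TAATTA, which contains TAAT on both strands, stands in 1 of the 65 and in 5.29% of all. These shares therefore describe part of the machinery, and whether they hold with the other genes was not tested. The exocytosis windows are richer in G and C, with a median of 61.3%, against 52.7% over all windows.

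No exocytosis gene passed the threshold. Limma called 0 of the 68 at an adjusted p of 0.05, beside 0% of all genes, and the smallest adjusted p was 0.645 among them and 0.623 on the array. At an unadjusted p of 0.05 there were 8, of which 6 were higher after Hlxb9 siRNA (Rab3b, Syt1, Stx8, Vamp3, Syt17 and Stxbp3) and 2 lower (Rab3a and Vamp7). These are 11.8% of the 68 genes, against 7.95% of all genes (4.21% higher and 3.74% lower). All 8 lie among the 51 exocytosis genes whose mean was at or above the array median, 15.7% of these, against 8.77% of all genes at or above it. The count changed with the arrays used. Leaving out Hlxb9 siRNA replicate 1 gave 2 genes, replicate 2 of that group gave 4, and replicate 3 gave 6. Leaving out control replicate 1 gave 4 genes, control replicate 2 gave 5, and control replicate 3 gave 15, where 10.2% of all genes reached that p. For the other left-out arrays the share of all genes was not computed, so those counts have no background here. With array weights, which gave control replicate 3 the smallest weight, limma called 2 of the 68 genes, Rab3a lower and Syt17 higher, against 2.5% of all genes (1.48% higher and 1.02% lower), and none when any array was left out. With the replicate number as a block there were 7 at the unadjusted p, against 9.19% of all genes, and Vamp7 was the one not among them. The groups did not overlap for 12 of the 68 genes, 17.6%, with 9 higher and 3 lower, against 17.3% of all genes (9.55% higher and 7.75% lower).

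Differences ran from -0.70 for Rab3a to 0.42 for Syt17, and 29 of the 68 genes lay within 0.1 log2 of 0. The median size of a difference, without its sign, was 0.11 log2, against 0.12 over all genes. In sign, 41 stood above 0 and 27 below (60.3% above, against 50.6% of all genes), and the median difference was 0.05, against 0.0023 over all genes. After each array was centred on its median, which lowers every difference alike, the split was 34 and 34 and the median -0.0048, against 38.4% of all genes above 0 and a median of -0.05. The sign of a small difference therefore depends on the scaling. The distance between the median of the machinery and that of all genes cannot change under such a shift, so centring is no test of it. Brighter probe sets leaned upward across the whole array: among genes whose mean lay at or above the array median of 5.16, 64.7% of the 51 exocytosis genes and 58.5% of all 11345 genes were higher. The median half-width of limma's 95% interval was 0.31 log2 for these genes.

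**Figure D1:**
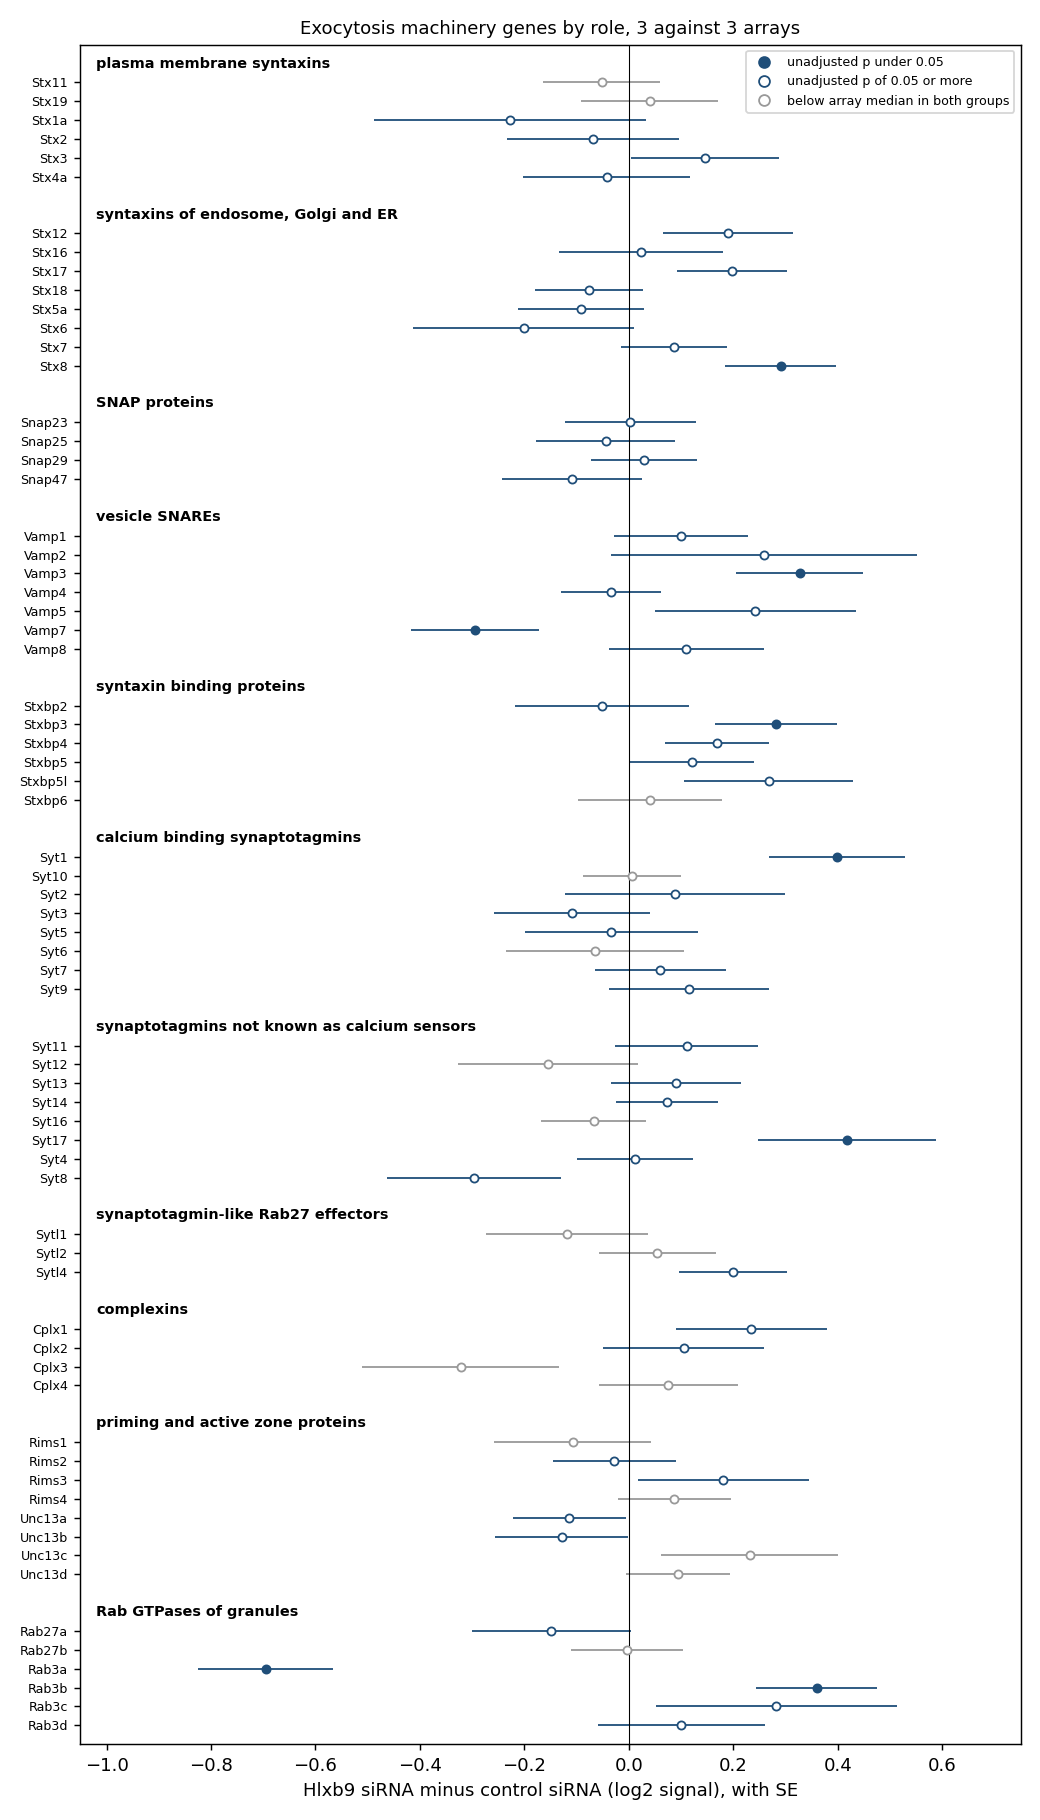
Difference in log2 signal, Hlxb9 siRNA minus control siRNA, with its standard error for 68 exocytosis genes grouped by role (3 arrays a group). Filled points have an unadjusted limma p under 0.05, grey points lie below the array median in both groups, and Rab3a stands farthest from 0 at -0.70.

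The granule Rab GTPases held the lowest difference of the machinery, in Rab3a, and one of the higher ones, in Rab3b. Rab3a, the most studied Rab of secretory vesicles, read 10.55, 10.69 and 10.62 on the Hlxb9 siRNA arrays, against 11.25, 11.15 and 11.55 on the control arrays. All 3 Hlxb9 siRNA values lay below all controls, at 10.62 ± 0.07 against 11.31 ± 0.21 (SD, n = 3 each), a level 1.62-fold lower. The difference of -0.70 ± 0.13 log2 (SE) had a 95% interval from -0.995 to -0.396 and did not pass over all probe sets (limma adjusted p = 0.645). Without control replicate 3 it was -0.58, and within arrays of equal number it was -0.69, -0.46 and -0.93. The two-sided exact permutation p was 0.1, the smallest that 3 against 3 arrays allow.

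The other Rab3a probe set did not share that difference. It read 10.71, 10.59 and 10.50 after Hlxb9 siRNA and 10.61, 10.70 and 10.37 after control siRNA, overlapping throughout, with a difference of 0.04 ± 0.12 (SE). The gap between the 2 probe sets has meaning only as it differs from array to array. It was -0.15, 0.10 and 0.12 after Hlxb9 siRNA and 0.63, 0.45 and 1.18 after control siRNA. The groups did not overlap in the gap either (exact permutation p = 0.1, the smallest possible). With the other probe set flat, the gap mostly repeats the first difference and adds no separate support. The choice of the brightest also rests on the control arrays, where the mean gap was 0.75, against 0.02 after Hlxb9 siRNA. The lower reading comes from an _x_at probe set, a class whose probes may also match other transcripts, and the flat reading from a plain _at probe set. The median difference over all 2441 probe sets of that class was -0.07 (-0.03 without control replicate 3), against 0.0085 for the other 42596. A difference as far below 0 as that of Rab3a was read by 36 of the 2441, Rab3a included, and by 26 of the other 42596. Which of the Rab3a readings follows the transcript was not tested.

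Rab3b, a paralog found on vesicles of endocrine cells and neurons, went the other way from the brightest Rab3a probe set. Its only probe set read 8.66, 8.63 and 8.38 after Hlxb9 siRNA and 8.26, 8.22 and 8.11 after control siRNA, without overlap. The difference was 0.36 ± 0.12 log2 (SE), 1.28-fold higher, and all 3 arrays exceeded their control of equal number. Rab3c differed by 0.28 ± 0.23 with replicates spread by 0.42 (SD) after Hlxb9 siRNA and 0.29 after control siRNA. Rab3d differed by 0.10 on its brightest probe set and by -0.33, -0.07 and -0.26 on the others. Rab27a, the Rab that binds granuphilin, read 10.69, 10.99 and 11.05 after Hlxb9 siRNA and 11.30, 11.01 and 10.86 after control siRNA. These overlapped, with a difference of -0.15 ± 0.15 and other probe sets between -0.18 and 0.20. All 4 probe sets of Rab27b lay below the array median, where the brightest differed by -0.0027 and the others by 0.10 to 0.20.

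Of the synaptotagmin-like effectors of Rab27, only Sytl4, encoding granuphilin, lay above the array median. It read 11.45, 11.45 and 11.58 after Hlxb9 siRNA and 11.27, 11.22 and 11.39 after control siRNA. Every Hlxb9 siRNA array exceeded every control, and the second probe set differed by 0.27, but the difference of 0.20 ± 0.10 (SE) was small and did not pass (limma adjusted p = 0.673). Sytl1 and Sytl2 were dim and differed by -0.12 and 0.05.

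Among plasma membrane syntaxins none of 6 reached the unadjusted p. Stx1a, the main syntaxin of insulin granule fusion, read 9.74, 9.59 and 9.45 after Hlxb9 siRNA and 9.53, 9.45 and 10.47 after control siRNA. Control replicate 3 was the highest of the 6 arrays by 0.73 log2. The difference was -0.23 ± 0.26 with that array and 0.10 without it, and the other probe set, plain _at against the _x_at of the brightest, differed by 0.29. Stx4a, the partner of Munc18c in the later phase of insulin release, differed by -0.04 ± 0.16 and by 0.11 without that array. Stx2 differed by -0.07 and Stx3 by 0.15, and the dim Stx11 and Stx19 by -0.05 and 0.04.

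The syntaxins of endosomes, Golgi and endoplasmic reticulum, relatives that do not work at the plasma membrane, had 5 of 8 genes higher. Stx8, a SNARE of late endosomes, read 10.53, 10.48 and 10.38 after Hlxb9 siRNA and 10.15, 10.29 and 10.08 after control siRNA. The groups did not overlap and the difference was 0.29 ± 0.11 (SE), with 0.51 and -0.16 on its other probe sets, the last of them dim. Stx17, the autophagosome syntaxin, differed by 0.20 ± 0.10 and Stx12 of recycling endosomes by 0.19 ± 0.12. Stx7 differed by 0.09 and Stx16 by 0.02, Stx5a by -0.09 and Stx6 by -0.20, where control replicate 3 lay 0.63 log2 above the other arrays and the other probe sets of Stx6 ran from -0.29 to 0.28. Stx18 differed by -0.08 on its brightest probe set, an _x_at one, against its sign on most others, which differed by -0.0043, 0.10, 0.27 and 0.31. The last of these did not overlap between groups.

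The SNAP proteins spanned the narrowest range of the 11 role groups, from -0.11 for Snap47 to 0.03 for Snap29. Snap25, the SNAP protein of regulated exocytosis in neurons and beta cells, read 12.13, 12.14 and 11.96 after Hlxb9 siRNA and 12.34, 12.10 and 11.93 after control siRNA. Its difference of -0.04 ± 0.13 had a 95% interval from -0.35 to 0.27, and the second probe set differed by -0.05. Snap23, its ubiquitous relative, differed by 0.0029, with 0.10 and 0.19 on its other probe sets.

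Vesicle SNAREs split between paralogs. Vamp2, the vesicle SNARE of insulin granules, read 10.37, 10.38 and 10.54 after Hlxb9 siRNA and 10.59, 10.52 and 9.41 after control siRNA. Control replicate 3 was 0.97 log2 below the lowest of the other 5 arrays, and the difference of 0.26 ± 0.29 became -0.12 without it, whereas the second probe set differed by 0.17 with that array and by 0.12 without it. Vamp3 (cellubrevin), the broadly expressed relative of Vamp2, read 12.94, 12.86 and 12.91 after Hlxb9 siRNA and 12.66, 12.71 and 12.36 after control siRNA. Its groups did not overlap, with a difference of 0.33 ± 0.12 on an _x_at probe set (0.22 without control replicate 3) and 0.07 to 0.38 on its other probe sets, all higher.

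Vamp7, a tetanus-insensitive VAMP of lysosomes and late endosomes, read 10.62, 10.91 and 10.96 after Hlxb9 siRNA and 11.20, 11.10 and 11.07 after control siRNA. Here both probe sets were lower without overlap, by -0.29 ± 0.12 and -0.39 ± 0.15 (SE), and by -0.32 and -0.46 without control replicate 3. Fitted with replicate numbers as a block, the brightest had a limma adjusted p of 0.549. Vamp8, of regulated secretion in exocrine cells, differed by 0.11, Vamp1 by 0.10, Vamp4 by -0.03 (others 0.15 and 0.21) and Vamp5 by 0.24.

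**Figure D2:**
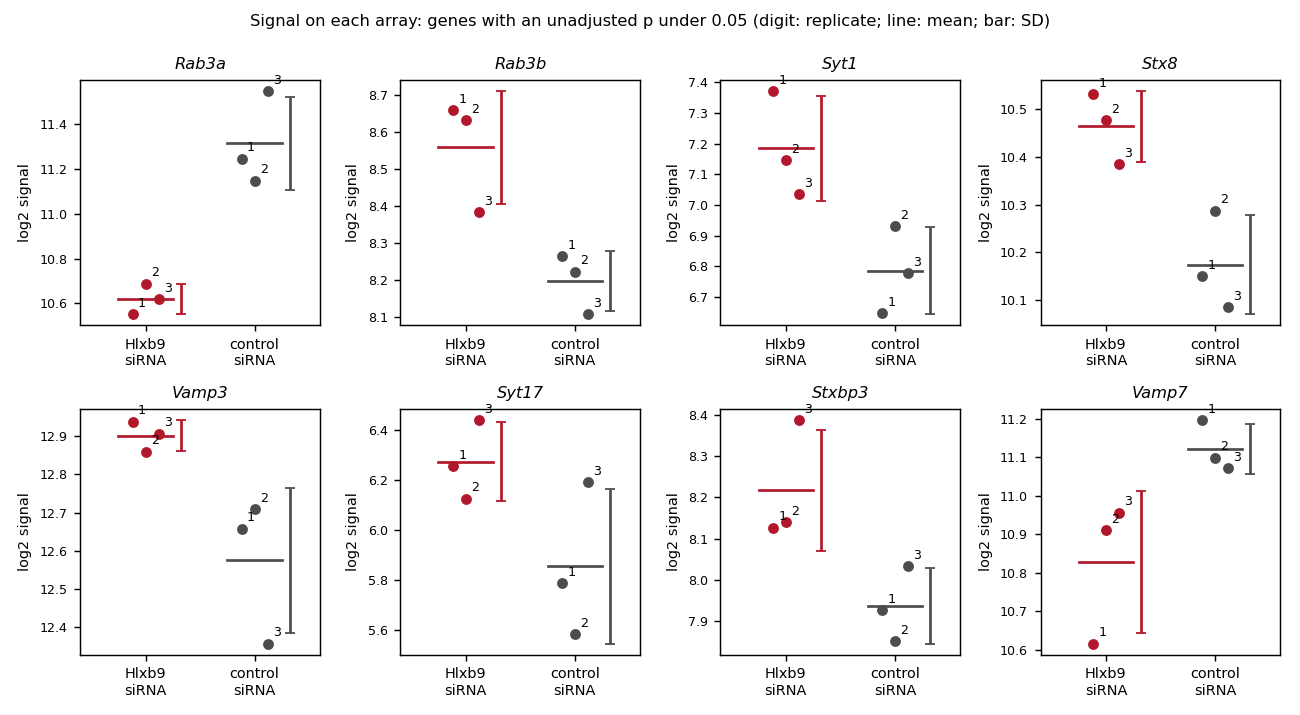
Log2 signal on each array for the 8 exocytosis genes with an unadjusted limma p under 0.05, Hlxb9 siRNA in red and control siRNA in grey, with the replicate number beside each point, the mean as a line and the SD as a bar. Each panel has its own axis. The groups do not overlap except that, in Syt17, control replicate 3 at 6.19 lies above Hlxb9 siRNA replicate 2 at 6.13.

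Of 6 syntaxin binding proteins 5 were higher. Stxbp3, encoding Munc18c, the partner of syntaxin 4, read 8.13, 8.14 and 8.39 after Hlxb9 siRNA and 7.93, 7.85 and 8.03 after control siRNA. The groups did not overlap on this probe set (0.28 ± 0.12, SE), but its _x_at probe set differed by -0.38 ± 0.23, and the mean of both probe sets by -0.051. Stxbp2 (Munc18b) differed by -0.05, Stxbp5, encoding the fusion inhibitor tomosyn, by 0.12 (others -0.08 and -0.10) and its relative Stxbp5l by 0.27. Stxbp4 differed by 0.17 and the dim Stxbp6 by 0.04 (other -0.20).

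Among the synaptotagmins that bind calcium, 5 of 8 were higher. Syt1, the fast calcium sensor of neurons, read 7.37, 7.15 and 7.04 after Hlxb9 siRNA and 6.65, 6.93 and 6.78 after control siRNA. There was no overlap, and the difference was 0.40 ± 0.13 (SE), 1.32-fold, with 0.25, 0.36 and -0.11 on 3 dimmer probe sets. Syt7, a calcium sensor of insulin granules, read 11.44, 11.24 and 11.13 after Hlxb9 siRNA and 11.35, 11.18 and 11.09 after control siRNA. Its difference of 0.06 ± 0.13 had a 95% interval from -0.23 to 0.35, with 0.03 and 0.01 on the next probe sets and -0.34 on a dim one. Syt9, another calcium sensor of beta cell granules, differed by 0.12 ± 0.15. Syt2 differed by 0.09, Syt3 by -0.11 and Syt5 by -0.03, and the dim Syt6 and Syt10 by -0.06 and 0.0060.

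Of the synaptotagmins not known as calcium sensors, Syt17 had the largest difference upward in the machinery. It read 6.26, 6.13 and 6.44 after Hlxb9 siRNA and 5.79, 5.58 and 6.19 after control siRNA. The groups overlapped through control replicate 3, and the difference of 0.42 ± 0.17 (SE) was 0.59 without it, with 0.26 on the second, dim probe set. Syt4, a synaptotagmin of granules that tunes fusion in mature beta cells, differed by 0.01 ± 0.11 (other probe set -0.34) and Syt13 by 0.09 ± 0.12. Syt11 differed by 0.11, with other probe sets between -0.22 and 0.57, Syt14 by 0.07 and Syt8 by -0.30 ± 0.17. Syt12 and Syt16 were dim, at -0.16 and -0.07.

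Complexins and priming proteins gave no gene at the unadjusted p. Cplx2 differed by 0.10 ± 0.16 (others -0.10 and -0.0042) and Cplx1 by 0.23 ± 0.14 (others 0.03 and -0.17), while the dim Cplx3 and Cplx4 differed by -0.32 and 0.08. Unc13a, encoding the priming factor Munc13-1, read 7.36, 7.38 and 7.48 after Hlxb9 siRNA and 7.50, 7.41 and 7.66 after control siRNA. It differed by -0.11 ± 0.11, with a 95% interval from -0.36 to 0.14, and Unc13b by -0.13 ± 0.13. Rims2, encoding the Rab3 effector RIM2 of beta cells, differed by -0.03 ± 0.12, with other probe sets between -0.0084 and 0.26. Rims3 differed by 0.18, and Rims1, Rims4, Unc13c and Unc13d were dim, at -0.11, 0.09, 0.23 and 0.09, with another probe set at -0.17 for Rims4 and others at -0.22 and 0.25 for Unc13c.

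**Figure D3:**
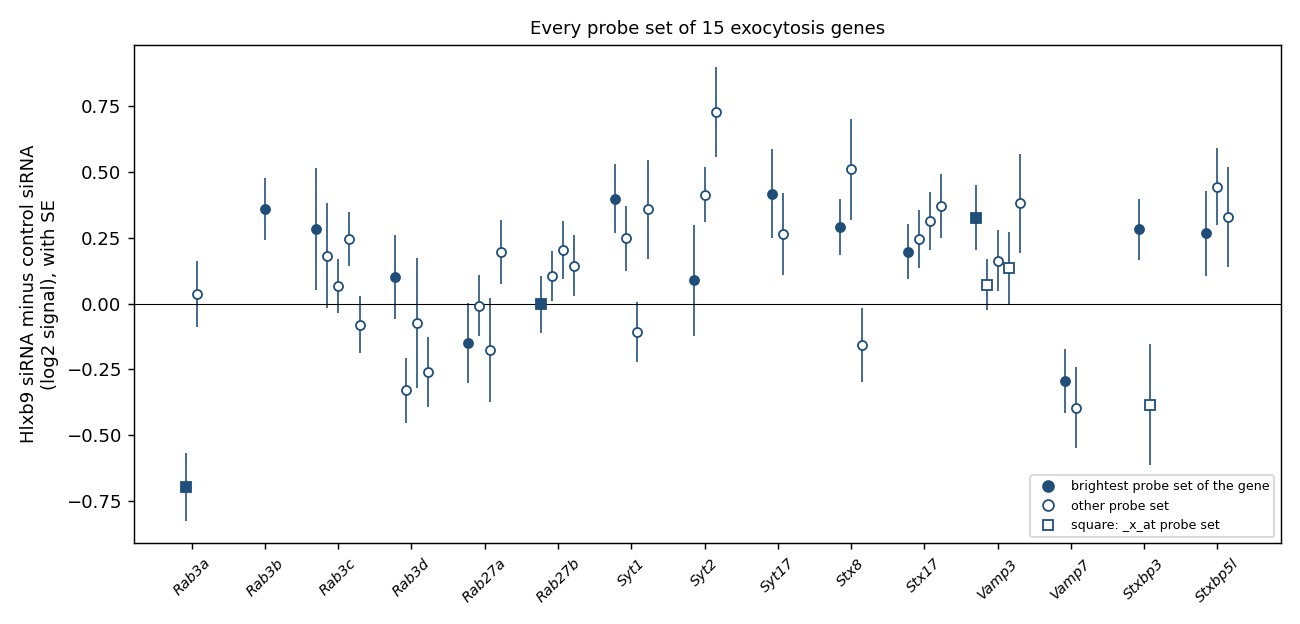
Difference in log2 signal, Hlxb9 siRNA minus control siRNA, with its standard error for every probe set of 15 exocytosis genes, ordered from bright to dim within a gene by the control mean. Shown are the genes with an unadjusted limma p under 0.05, the other granule Rabs, and Syt2, Stx17 and Stxbp5l. These last were chosen for agreement after their values were seen. Both Vamp7 probe sets and all 4 of Stx17 lie on the same side of 0, whereas Rab3a is at -0.70 and 0.04.

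Agreement between probe sets of a gene was about as frequent in the machinery as elsewhere on the array. Of the 47 genes with several probe sets, 20 had all of them in the same direction (12 higher and 8 lower), 42.6% against 40.7% of all such genes (22.1% higher and 18.7% lower), and 27 were mixed. Of the 163 probe sets, 20 had an unadjusted limma p under 0.05, 12.3% against 7.62% of all probe sets, and 12 of the 20 were not the brightest of their gene. The 6 genes read by _x_at probe sets were Rab3a, Rab27b, Stx1a, Stx18, Snap47 and Vamp3.

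Control replicate 3 lay apart on these genes about as often as on others. It lay outside the range of the other 5 arrays by more than 0.3 log2 for 13 of the 68 genes, 19.1%, against 16% of all genes. Leaving it out turned the sign of 19 genes, a count not made over all genes. The widest gaps were in Vamp2, Stx1a, Stx6 and Cplx3 (0.62 log2). For members of the 13 described above over all 6 arrays only, the difference without it was 0.06 for Stx6 and -0.10 for Cplx3. It was 0.10 for Stxbp5l, 0.0018 for Rims3, -0.05 for Vamp8 and -0.15 for Stx16. For Stx12 it was 0.07, for Snap47 0.02 and for Syt13 -0.03. Without that array 44 genes were higher and 24 lower, and 13 of the 15 at the unadjusted p were higher. In that fit 10.2% of all genes reached that p in either direction, and their split by direction was not computed. Whether the 3' to 5' imbalance of that array sets these values was not tested.

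**Figure D4:**
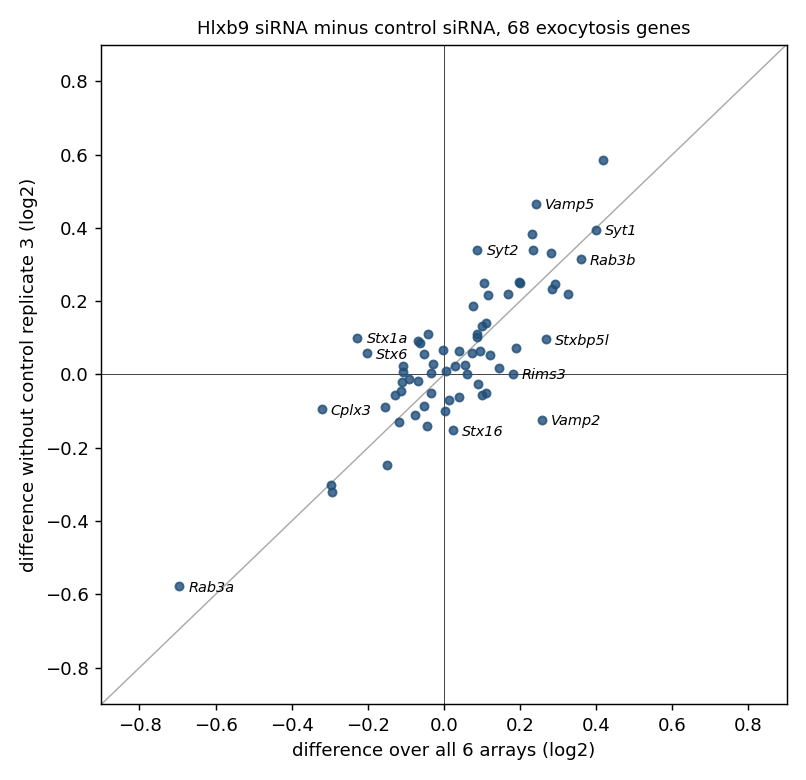
Difference in log2 signal, Hlxb9 siRNA minus control siRNA, for 68 exocytosis genes over all 6 arrays (horizontal) and without control replicate 3 (vertical), with the line of equal values in grey. Vamp2 moves from 0.26 to -0.12 and Stx1a from -0.23 to 0.10, and Rab3a from -0.70 to -0.58 without a change of sign.

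Genes that work beside this machinery were followed in 5 companion lists, of which 75 of 78 entries were measured. Limma called 0 of them, 40 were higher and 35 lower, and 4 had an unadjusted p under 0.05 (3 higher and 1 lower), 5.33% against 7.95% of all genes. Syn2, encoding the vesicle-tethering synapsin 2, had the smallest p of these lists. It read 9.76, 9.74 and 9.80 after Hlxb9 siRNA and 9.23, 9.36 and 9.08 after control siRNA. The groups did not overlap and the difference was 0.54 ± 0.11 (SE), 1.46-fold, with its 5 other probe sets between -0.0050 and 0.29. In the list of granule and vesicle membrane proteins, 11 of 18 were higher (median 0.03), with Scamp5 at 0.24 and Syngr3 at -0.28.

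Regulators and effectors of Rab3 and Rab27 had 10 of 17 genes higher and a median of 0.09. Chm, encoding the escort protein that presents Rabs for prenylation, differed by -0.37 ± 0.13 (SE) without overlap, with its other probe set at 0.26. Rab3ip, an exchange factor for Rab8, differed by 0.21 and Myo5a, the myosin that carries granules on actin, by -0.18. Among 16 NSF and Golgi SNARE genes 10 were higher (median 0.07), with the Golgi SNARE Vti1a at 0.43 ± 0.14, the endoplasmic reticulum SNARE Use1 at 0.33 ± 0.12 and Gosr1 at -0.18. Active zone and priming genes had 4 of 15 higher (median -0.07), with Erc2 at -0.16, Doc2g at -0.19 and Cadps, the dense core vesicle priming factor CAPS, at 0.14. In the exocyst, which tethers vesicles to the plasma membrane, 5 of 9 were higher (median 0.15), with Exoc6b at 0.20, Exoc7 at 0.15 and Exoc6 at -0.16 (others -0.31 to 0.16).

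Beta cell markers were bright in both groups, with Ins2 at 13.81 ± 0.02 after Hlxb9 siRNA and 13.85 ± 0.02 after control siRNA (SD, n = 3 each). Of 8 beta cell markers 6 were measured, Ins1 and Mafa not being among them. Of the 6 measured 5 were lower, none at the unadjusted p, and G6pc2 (-0.23) and Pdx1 (-0.11) were lower without overlap. The mean level of 7 neuron markers, cells that share most of this machinery, lay between 6.82 and 6.998 after Hlxb9 siRNA and between 6.47 and 6.93 after control siRNA. It overlapped between groups, with 5 of 7 genes higher, of which Slc17a6 (0.46 ± 0.20, SE) and the dim Neurod6 (0.40 ± 0.14) had an unadjusted p under 0.05. Neurod6 did not overlap between groups, and the part of these markers in the values of Syt1 and Syn2 was not tested. The 5 measured exocrine and duct markers all lay below the array median, and so did 5 of 6 fibroblast and endothelium markers, whose mean level was 3.93 to 4.02 after Hlxb9 siRNA and 4.10 to 4.19 after control siRNA. Of 5 leukocyte markers 3 were higher and 4 lay below the median. The marker above it, Cd68, a protein of macrophage lysosomes, read 7.41, 7.40 and 7.28 after Hlxb9 siRNA and 6.77, 7.06 and 6.66 after control siRNA, without overlap, and its difference of 0.54 ± 0.13 (SE) did not pass (limma adjusted p = 0.645). Hormone genes of other islet endocrine cells were bright as well. Gcg had means of 12.87 after Hlxb9 siRNA and 13.00 after control siRNA, and Sst of 13.10 and 13.12. Ghrl, at 4.85 and 5.30, and Hhex, at 3.05 and 3.13, were not. Of 5 measured markers of these cells 1 was higher, the hormone gene Ppy. It read 10.95, 10.76 and 8.55 after Hlxb9 siRNA and 9.86, 9.68 and 7.32 after control siRNA. The groups overlapped, since replicate 3 was low in both, while within arrays of equal number Ppy was higher by 1.08, 1.08 and 1.23 log2. Its difference of 1.13 ± 0.81 (SE) passed neither without the block nor with it (limma adjusted p = 0.737 without and 0.478 with), and the part of these cell type markers in the exocytosis values was not tested.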

How the data were processed

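Total RNA (6 ug) from MIN6 cells was hybridised as biotinylated cRNA to an Affymetrix mouse array, per the labels. The deposited table holds log2 values for 45101 probe sets on 6 arrays. RMA and Partek are named, without versions or settings, in the submitters' processing notes. RMA includes quantile normalization, which sets every array to nearly the same distribution, so a shift shared by most transcripts cannot be seen. The 64 control probe sets were set aside. Of the remaining 45037, 34945 have 1 gene symbol in the platform annotation, 932 several and 9160 none here. Another 3 probe sets fitting the gene rule carried several symbols and were left out.

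Groups were compared with limma 3.58.1 (lmFit, eBayes, R 4.3.3), with no covariate, two-sided, adjusted by Benjamini-Hochberg over all 45037 probe sets at 0.05. The code was also run on simulated data with known changes and independent noise. That run had no outlying array and no pairing, so it checks the code and not the precision reached here. SE is limma's moderated standard error. Single values also had exact permutation tests. Genes named are Rab3a, those at an unadjusted p under 0.05 (at most 25), a list of core insulin exocytosis genes, and the 3 smallest p of each companion list. Opposing probe sets, those that differ by 0.1 or more in the other direction, are given for members. Members and lists were chosen with earlier results of these data known. Deviations of arrays with equal replicate numbers correlated at 0.155, 0.165 and 0.202, all above the chosen limit of 0.1. Those of arrays with unequal numbers correlated at -0.206 to 0.072. Equal numbers were therefore taken as pairs, on this weak evidence of the values and not on the labels. The reported fit, its p-values and the permutation tests leave this pairing out, and the fit with the block is an alternative. That fit, other scalings, array weights, left-out arrays and other probe set choices were alternatives. Precision is limited by the count of arrays, 3 a group, and p-values cover the spread between these samples. Entrez identifiers of all 68 genes matched the RefSeq table of GRCm38.p6. Figures were drawn with matplotlib 3.10.9.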

Additional observations from a re-analysis of the deposited data

How the results depend on the processing

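The count of 0 exocytosis genes called held under median centring, repeated quantile normalization, a linear offset of 32, leaving out dim probe sets, a trended robust prior, the replicate block, averaging the probe sets of each gene, plain _at probe sets, an adjusted p of 0.1 and each left-out array. Array weights gave 1132 probe sets and 2 of the exocytosis genes (Rab3a lower and Syt17 higher, 2.5% of all genes being called), and with weights the count was 0 when any array was left out. Rab3a read -0.52 with weights and passed (limma adjusted p = 0.0347, against 0.312 to 0.958 over the unweighted alternatives that read the same probe set, and 0.0876 to 0.931 with weights and without single arrays), -0.33 as the mean of its probe sets, and 0.036 on its plain _at probe set, the reverse of the brightest because a different probe set is read. Stxbp3 was reversed at -0.051 as the mean of its probe sets. The 8 genes at the unadjusted p were 5 after centring, 19 with weights, 2 to 15 without single arrays and 3 to 20 with weights and without single arrays (14 without control replicate 3). Without control replicate 3 and without weights, 10.2% of all genes reached that p, and with the replicate block 9.19% did. The share of all genes was not computed for centring, weights or the other left-out arrays, so those counts have no background here. The cause of these changes was not tested. The median difference was -0.0048 after centring, 0.0084 to 0.07 without single arrays and 0.01 to 0.08 with weights and without single arrays. The replicate block left the median at 0.05, gave 7 genes at the unadjusted p, and changed no call, with a limma adjusted p of 0.482 for Rab3a. Mnx1 lay between -0.38 and -0.22 without single arrays and passed nowhere. It lay between -0.38 and -0.08 with weights and without single arrays, and Rab3a between -0.78 and -0.58 without single arrays and between -0.75 and -0.52 with weights as well. Of the 7 other genes named by p, 6 kept their sign throughout, and of 38 named for other reasons 18 did.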

Other observations

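Of the 12 genes whose several probe sets were all higher after Hlxb9 siRNA, 3 are given here, chosen after their values were seen. In each the brightest probe set did not reach an unadjusted p of 0.05 and another one did. Syt2, a fast calcium sensor of neurons, read 7.71, 7.55 and 7.68 on its second probe set after Hlxb9 siRNA and 7.33, 7.23 and 7.15 after control siRNA, and 5.60, 5.39 and 5.53 on its dimmest, against 5.03, 4.91 and 4.40. These differences, 0.41 ± 0.10 and 0.73 ± 0.17 log2 (SE), showed no overlap and did not pass (limma adjusted p = 0.645 for both), while the brightest probe set differed by 0.09, or by 0.34 without control replicate 3, which read 8.58 there against 7.80 to 8.28 on the other arrays. Stx17, the autophagosome syntaxin, differed by 0.20, 0.25, 0.31 and 0.37 on its 4 probe sets, and by 0.24 to 0.42 without control replicate 3. Stxbp5l, a tomosyn relative, differed by 0.27, 0.33 and 0.44, and its brightest probe set, the first of these, by 0.10 without control replicate 3. As members chosen for agreement, they carry no test of it.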
